A study of Mus musculus with 6 samples.

Results

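The comparison set 3T3L1 cells that received LTK-14A against both kinds of control cells at once. Its members were the 2 LTK-14A libraries and the 4 control libraries, which are all 6 samples of the study, and the 24139 of 53342 genes in the deposited table that had a normalized value of at least 1 in 2 or more libraries. The 4 controls were the 2 libraries of cells given DMSO, the solvent, and the 2 libraries of untreated cells, taken as 1 group. The design text asks how expression in cells that differentiated with LTK-14A differs from that in cells that differentiated with no inhibitor or with the solvent, and the pooled control group puts both of those comparisons into 1 test with 4 libraries on the control side.

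3T3L1 is a mouse fibroblast-like line that fills with fat droplets when it is exposed to a hormone mixture. Per the labels' protocols all 3 groups were induced alike once confluent. For 2 days the medium held 1 µM dexamethasone, 0.5 mM IBMX (an inhibitor of phosphodiesterases) and 1 µg/ml insulin, and later medium held insulin. By the labels, the groups differed in what was added, which was LTK-14A, DMSO or nothing. LTK-14A inhibits butyrylation, by the labels. Neither the dose nor the day of addition is given in the labels. Total RNA was sequenced after removal of ribosomal RNA with a stranded kit. Replicates carry only a number in the labels, with no word on whether their cultures were separate. The p-values therefore cover the spread between these libraries, which may be technical. The line is a single established cell line, and the results apply to it alone.

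During adipogenesis the glucocorticoid, cAMP and insulin signals switch on a cascade of transcription factors that ends with PPARγ and C/EBPα, and these in turn activate the genes of lipid storage, mitochondrial oxidation and secreted adipokines. Butyrylation of histone lysines is an acylation mark that acetyltransferases such as p300 can place, and it draws on the same pool of acyl-coenzyme A that the metabolic enzymes of the cell use. Coenzyme A, ubiquinone and heme are made by separate pathways and serve as cofactors of lipid metabolism and of the mitochondrial electron transport chain.

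The normalized values summed to between 6122687 and 7091007 per library, and 21550 to 22289 genes were above 0 in each. The number of reads cannot be recovered from the values, so depth is unknown and no counting interval is given. Gm26917 and Gm42418, loci of ribosomal RNA, took 16.4% of the total in untreated replicate 2. In the other 5 libraries they took 8.604% to 10.6%. Malat1, a nuclear noncoding RNA, took 3.98% and 4.30% of the total with LTK-14A, 2.81% and 2.77% with DMSO and 2.59% and 1.85% in untreated cells. The first principal component held 69.05% of the variance and placed both LTK-14A libraries on 1 side and all 4 controls on the other, and the second, with 15.62%, set untreated replicate 2 apart from the rest. Values were analysed as log2(value + 1) with limma, each library counting once, and a gene is called where the Benjamini-Hochberg adjusted p is under 0.05. Without untreated replicate 2, limma called 5511 genes, 4111 of them among the 4223 called with all 6 libraries. After rescaling without ribosomal and small RNA loci and Malat1 it called 4268, of which 4037 were among the 4223. Under either change all 162 named genes kept their calls.

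The label of an adipocyte line was checked with marker genes. All 8 adipocyte markers examined were present in the controls and all 8 were lower with LTK-14A, for example Plin1, which coats the lipid droplet, at 325 and 347 with LTK-14A, 3662 and 3888 with DMSO and 4349 and 4242 in untreated cells. Of 8 fibroblast or preadipocyte markers, Pdpn, Thy1 and Dlk1 were higher with LTK-14A, Postn was lower and 4 did not pass the test. With single libraries left out (LTK-14A 1 stands for LTK-14A replicate 1, and so on), among these 8 higher calls numbered 1 without LTK-14A 1 and 5 without untreated 2, and lower calls numbered 0 without LTK-14A 1 or LTK-14A 2 or DMSO 1 or DMSO 2 or untreated 1 and 2 without untreated 2. Calls were lost, with adjusted p above 0.05, for Thy1 at 0.054 without LTK-14A 1, for Dlk1 at 0.0597 without DMSO 2, 0.242 without LTK-14A 1, 0.211 without LTK-14A 2 and 0.0596 without untreated 1 and for Postn at 0.0527 without DMSO 1, 0.0989 without DMSO 2, 0.191 without LTK-14A 1, 0.14 without LTK-14A 2 and 0.0809 without untreated 1. Among the adipocyte markers the call was lost for Lpl at 0.208 without LTK-14A 1 and 0.165 without LTK-14A 2. The adipocyte markers summed to 33910 and 36260 with LTK-14A, 87690 and 81620 with DMSO and 96220 and 70490 in untreated cells, and the fibroblast markers to 81010 and 85770 with LTK-14A, 58320 and 64490 with DMSO and 60590 and 99820 in untreated cells. The 6 macrophage markers summed to 84.6 to 87.9 with LTK-14A and 47.2 to 68.5 in the controls. Of these markers limma called Cd68 higher and Lyz2 lower, and Csf1r did not pass the test. Ptprc and Itgam were at 0 in all 6 libraries, and so were 3 of 6 epithelial, 2 of 6 endothelial and 3 of 5 erythroid markers. In a bulk sample, fewer cells of a type and less RNA per cell cannot be told apart, and this holds for every result here.

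LTK-14A changed 4223 genes, 17.5% of those tested. Of these, 1608 (6.66% of all tested) were higher and 2615 (10.8%) were lower with LTK-14A. Among the 10918 protein-coding genes with a mean of at least 20, 29.1% were called, 10.7% higher and 18.4% lower. The falls were also the larger changes: 1490 genes were called lower with a log2 fold change of -1 or less and 95 with -4 or less, whereas 588 were called higher with at least 1 and 2 with at least 4. The median over all genes tested was -0.03. The size of these counts depended on having both LTK-14A libraries, since leaving out LTK-14A replicate 1 gave 1202 calls, 272 higher and 930 lower. Leaving out LTK-14A replicate 2 gave 1435 calls, 393 higher and 1042 lower.

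Separation from the controls was also recorded without a model: a gene is separated where both LTK-14A values lie above the highest of the 4 control values or both lie below the lowest. By that reading 38.2% of the genes tested were separated, 17.5% of the genes tested upwards (4222 genes) and 20.7% downwards (4999 genes), and 5002 of these were not called. Of the genes called, 1607 were separated upwards and 2612 downwards. The 4 exceptions, Cav2, Gm4070, 0610009B22Rik and Gm8451, are named here because they are so few and were picked after their values were seen. In Cav2, a partner of caveolin-1, the values were 737 and 672 with LTK-14A, 1814 and 1571 with DMSO and 1735 and 731 in untreated cells, so that untreated replicate 2 alone overlapped the LTK-14A libraries; its call was lost with 1 library left out, for Cav2 at 0.0934 without DMSO 1, 0.106 without DMSO 2, 0.336 without LTK-14A 1, 0.4 without LTK-14A 2 and 0.121 without untreated 1. The gap between the groups, called the margin from here on, is the distance on the log2(value + 1) scale between the LTK-14A value and the control value that lie closest to each other. Its median was 0.54 among genes called and separated upwards and 0.70 among those called and separated downwards.

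**Figure D1:**
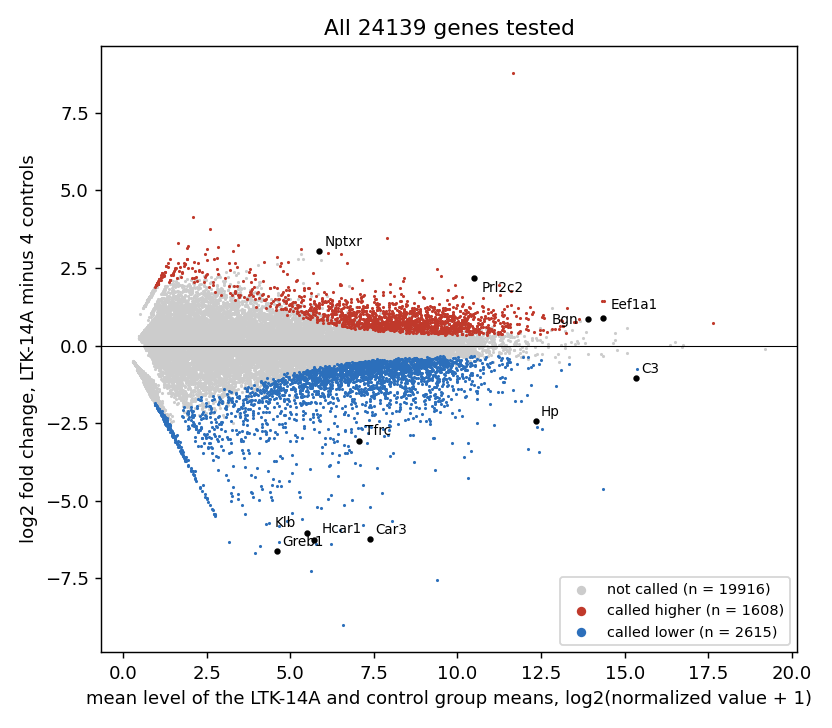
Each point is 1 of the 24139 genes tested, with the average of the group means on the x axis, as log2(normalized value + 1), and the log2 fold change of LTK-14A minus the 4 controls on the y axis; red and blue points are genes called higher and lower. The 2615 lower genes reach further from 0 than the 1608 higher ones, and 11 genes described in the text are labelled.

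Values are given by library, and 4 control values are in the order DMSO 1, DMSO 2, untreated 1 and untreated 2. Genes named by rule had to be separated from all 4 controls, and of the 4223 genes called only 4 were not. A lack of overlap between the groups therefore follows from how genes were chosen, here and below, and only describes the values. The genes that rose with the widest margins come first. Inhba (mm10 chromosome 13, 16011851 to 16031621) encodes the subunit that forms activin A, a TGF-β family ligand, and stood at 282 and 227 in LTK-14A libraries, against 36.5 and 33.9 in DMSO libraries and 34.8 and 22.8 in untreated libraries (log2 fold change 2.97 ± 0.25 SE, adjusted p = 7.54e-06). Nptxr, the neuronal pentraxin receptor, stood at 194 and 139 with LTK-14A, 16.1 and 20.5 with DMSO and 20.8 and 19.7 in untreated cells (3.03 ± 0.27 on the log2 scale, adjusted p = 1.24e-05). In both genes the LTK-14A libraries lay far above every control, and the DMSO and untreated values overlapped in Nptxr and in Inhba. Nceh1, a hydrolase of neutral cholesterol esters, was at 192 and 189 with LTK-14A against 27.9, 23.4, 33.0 and 13.7 in the controls (2.97 ± 0.32, adjusted p = 6.55e-05). Pappa2, a protease that cleaves IGF-binding proteins, was at 235 and 283 with LTK-14A against 51.4, 23.9, 47.5 and 41.2 in the controls (2.68 ± 0.29, adjusted p = 6.11e-05). Untreated replicate 2 was the lowest control for Nceh1 and DMSO replicate 2 for Pappa2, and no control came near the LTK-14A libraries. The matrix protease Mmp11 reached 1698 and 1509 with LTK-14A, 336 and 315 with DMSO and 322 and 369 in untreated cells (2.25 ± 0.12, adjusted p = 2.78e-07), and the mitochondrial carrier Slc25a30 746 and 621 with LTK-14A, 171 and 146 with DMSO and 155 and 164 in untreated cells (2.09 ± 0.14, adjusted p = 1.62e-06). Mreg, which acts in melanosome and phagosome transport, was at 66.7 and 58.4 with LTK-14A against 10.7, 9.10, 13.1 and 11.1 in the controls (2.41 ± 0.34, adjusted p = 0.000438). These 7 calls held with any single library left out.

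Prl2c2, a proliferin of the prolactin family, was at 3081 and 3095 in LTK-14A libraries, against 783 and 619 in DMSO libraries and 677 and 647 in untreated libraries (log2 fold change 2.18 ± 0.12 SE, adjusted p = 3.37e-07). Its neighbour Prl2c3 was at 706 and 700.1 with LTK-14A against 206, 158, 165 and 108 in the controls (2.17 ± 0.21, adjusted p = 2.78e-05), while Prl2c5, another copy on chromosome 13, had 88.7 and 104 with LTK-14A against 64.9, 47.3, 97.5 and 31.1 in the controls and did not pass the test (adjusted p = 0.174). The copies are nearly identical and reads could be split between them, so the values of single copies are uncertain.

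Another 4 genes of the widest rises had low values in the controls and depended on having both LTK-14A libraries. Edn1, the vasoconstrictor peptide endothelin-1, was at 35.9 and 27.4 with LTK-14A, 2.15 and 3.38 with DMSO and 1.25 and 3.33 in untreated cells (3.25 ± 0.52, adjusted p = 0.0011). Fgl2, a fibrinogen-like protein, was at 19.8 and 22.9 with LTK-14A against 2.15, 2.26, 3.57 and 2.22 in the controls (2.67 ± 0.50, adjusted p = 0.00314). Ccl6, a chemokine, was at 69.3 and 55.6 with LTK-14A against 12.03, 11.3, 6.23 and 3.88 in the controls (2.86 ± 0.47, adjusted p = 0.00126). In each, all 4 controls lay below both LTK-14A libraries. Cd68, a lysosomal membrane glycoprotein used as a macrophage marker, was at 62.2 and 67.2 with LTK-14A against 14.9, 16.6, 11.1 and 8.29 in the controls (2.30 ± 0.36, adjusted p = 0.00101). The macrophage markers Ptprc and Itgam were at 0 in every library, and Adgre1 was at 1.80 in LTK-14A replicate 1 and at 0 in the rest. Lyz2 was listed at 0 with LTK-14A and was called lower. Csf1r was at 23.8 and 17.4 with LTK-14A against 27.35, 42.6, 26.5 and 39.7 in the controls and did not pass the test. With 1 library left out, the adjusted p rose above 0.05 for Edn1 at 0.0532 without LTK-14A 1, for Fgl2 at 0.0505 without LTK-14A 2, for Ccl6 at 0.0929 without LTK-14A 1 and 0.0656 without LTK-14A 2 and for Cd68 at 0.0571 without LTK-14A 1 and 0.0592 without LTK-14A 2.

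The genes that fell with the widest margins follow. Klb (mm10 chromosome 5, 65348314 to 65384007), which encodes β-klotho, the co-receptor through which FGF21 acts, stood at 4.36 and 4.74 in LTK-14A libraries, against 369.6 and 314 in DMSO libraries and 480.0 and 314 in untreated libraries (log2 fold change -6.04 ± 0.22 SE, adjusted p = 9.73e-09). Hcar1, the lactate receptor that restrains lipolysis, stood at 1.80 and 9.16 with LTK-14A, 461 and 321 with DMSO and 508 and 394 in untreated cells (-6.29 ± 0.40 on the log2 scale, adjusted p = 8.86e-07). The LTK-14A libraries had values far below those of every control. Mrap, the accessory protein of the melanocortin-2 receptor, was at 7.18 and 10.4 with LTK-14A against 376, 316, 461 and 312 in the controls (-5.23 ± 0.22, adjusted p = 3.13e-08). Tmem45b, a transmembrane protein, was at 2.47 and 3.97 with LTK-14A against 248, 229.5, 209 and 161 in the controls (-5.66 ± 0.26, adjusted p = 6.12e-08). Arxes1, named for its expression in adipocytes from the X chromosome, was at 7.197 and 9.16 with LTK-14A against 347, 322, 348 and 317 in the controls (-5.20 ± 0.18, adjusted p = 6.95e-09). Its paralog Arxes2 was at 19.8 and 18.3 with LTK-14A against 329, 378, 422 and 348 in the controls (-4.20 ± 0.17, adjusted p = 2.35e-08), and reads could be split between the copies. All of the falls in this paragraph kept their calls with any single library left out.

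Among the carbonic anhydrases, which interconvert carbon dioxide and bicarbonate, 4 genes on chromosome 3 fell. Car3 was at 10.8 and 27.5 with LTK-14A, 1397 and 1277 with DMSO and 1520 and 1410 in untreated cells (log2 fold change -6.26 ± 0.26 SE, adjusted p = 3.33e-08). Car2 was listed at 0 with LTK-14A and at 38.4 and 41.1 with DMSO and 54.5 and 46.0 in untreated cells (adjusted p = 2.97e-06). Car1 was at 0 and 1.88 with LTK-14A against 13.8, 15.2, 11.1 and 9.96 in the controls (-2.98 ± 0.57, adjusted p = 0.00345). Car13 was at 319 and 282 with LTK-14A against 478, 558, 557 and 378 in the controls (-0.70 ± 0.17, adjusted p = 0.0129). The LTK-14A libraries lay below every control in all 4 genes, by little in Car13. Of 12 genes tested whose symbols begin with Car and a number, limma called 5 lower and 0 higher, beside 10.8% lower and 6.66% higher of all genes tested. At an unadjusted p under 0.05 the counts were 6 and 1, with no share of all genes beside them. This set was picked after its counts were seen, and fewer of its falls were called with either LTK-14A library left out. Calls were lost for Car1 at 0.061 without LTK-14A 1 and for Car13 at 0.148 without LTK-14A 1 and 0.231 without LTK-14A 2.

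**Figure D2:**
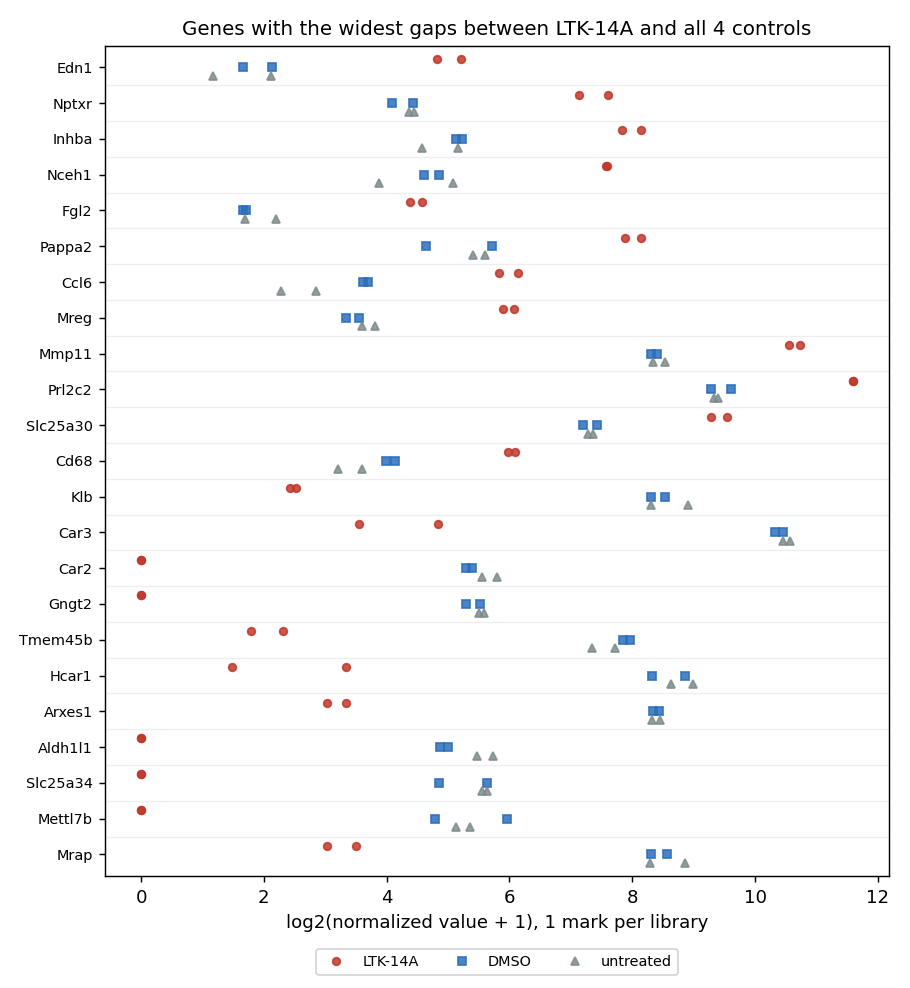
Each row is 1 of 23 genes of the widest margins, 12 higher with LTK-14A (upper rows) and 11 lower (lower rows), and each mark is 1 library on the log2(normalized value + 1) scale; circles are LTK-14A, squares DMSO and triangles untreated. DMSO and untreated marks lie together in most rows, and 5 genes have both LTK-14A marks at 0.

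Promoter sequence is shown for the genes with the widest margins whose start in the deposited table is also a start in RefSeq, 2 that rose (Edn1 and Inhba) and 2 that fell (Arxes1 and Mettl7b), so that the bases just before genes that moved apart can be compared. Each line holds the 250 bases before the start, from RefSeq on GRCm38.p6, and capitals mark the motifs searched.
Edn1 (chr13:42301226-42301475, + strand): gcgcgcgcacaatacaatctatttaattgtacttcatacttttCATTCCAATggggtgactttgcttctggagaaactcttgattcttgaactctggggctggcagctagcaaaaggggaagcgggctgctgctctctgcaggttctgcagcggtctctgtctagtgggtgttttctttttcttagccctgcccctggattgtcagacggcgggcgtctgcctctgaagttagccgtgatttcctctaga
Inhba (chr13:16011601-16011850, + strand): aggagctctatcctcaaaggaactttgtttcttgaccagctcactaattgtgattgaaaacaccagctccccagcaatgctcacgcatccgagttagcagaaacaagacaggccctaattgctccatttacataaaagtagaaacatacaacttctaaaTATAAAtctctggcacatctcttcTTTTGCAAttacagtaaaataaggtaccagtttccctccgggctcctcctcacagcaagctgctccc
Arxes1 (chrX:136033117-136033366, + strand): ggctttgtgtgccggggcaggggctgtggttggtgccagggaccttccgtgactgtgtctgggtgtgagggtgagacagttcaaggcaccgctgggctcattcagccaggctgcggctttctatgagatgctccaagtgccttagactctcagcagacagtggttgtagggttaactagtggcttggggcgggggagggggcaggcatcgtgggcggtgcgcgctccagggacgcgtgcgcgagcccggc
Mettl7b (chr10:128960989-128961238, - strand): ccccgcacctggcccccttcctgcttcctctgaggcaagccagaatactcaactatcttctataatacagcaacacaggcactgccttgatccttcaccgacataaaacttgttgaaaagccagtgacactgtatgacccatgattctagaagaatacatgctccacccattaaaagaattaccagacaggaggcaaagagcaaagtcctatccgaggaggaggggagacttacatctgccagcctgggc

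Both strands were searched for 8 motifs. In Edn1 the letters of the TEAD site began 207 bases before the start and overlapped the letters of the CCAAT box, which began at 203. In Inhba the TATA box began 91 bases before the start and the C/EBP match at 67. None of the 8 motifs was found in the windows of Arxes1 and Mettl7b. Over the 12558 tested genes with a matched promoter, the share with each motif is given with no test, for 978 genes called higher, 1807 called lower and all. The letters searched for AP-1 were TGACTCA, found in 4.19% of promoters of genes called higher, 2.88% of those called lower and 3.41% of all. For the cAMP response element TGACGTCA was searched, which 2.25% of the higher, 2.27% of the lower and 2.44% of all promoters held. An E-box was read as CACGTG, in 8.79% of the higher, 7.69% of the lower and 7.81% of all. A match for C/EBP was TTGCNNAA, in 6.75% of the higher, 8.74% of the lower and 7.79% of all. Half-sites of nuclear receptors were read as AGGTCA, in 10.1% of the higher, 11.8% of the lower and 11.2% of all. TEAD sites were read as GGAATG, in 10.5% of the higher, 9.57% of the lower and 11.2% of all. TATA boxes were read as TATAAA, in 7.77% of the higher, 7.31% of the lower and 7.11% of all. The CCAAT box stood in 33.7% of the higher, 38.4% of the lower and 35.9% of all. A match is a run of letters and not a bound site.

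Some genes were listed at 0 in every library of one side. In all, 60 genes were listed at 0 in both LTK-14A libraries and at 5 or more in all 4 controls, and 3 genes were the reverse. With Car2, the 60 include Camp, an antimicrobial cathelicidin, at 40.0 and 25.2 with DMSO and 45.4 and 69.8 in untreated cells (adjusted p = 1.21e-05). Gngt2, a G-protein γ subunit known from cone cells, was at 38.2 and 45.1 with DMSO and 44.3 and 47.1 in untreated cells (adjusted p = 2.83e-06). Every control library held both genes. The mitochondrial carrier Slc25a34 was at 27.9 and 48.8 with DMSO and 48.8 and 46.0 in untreated cells (adjusted p = 5.96e-06). Mettl7b, a methyltransferase, was at 26.6 and 60.9 with DMSO and 40.0 and 33.9 in untreated cells (adjusted p = 1.15e-05). In the other direction Slco1a1, an organic anion transporter best known from liver, was at 6.94 and 5.08 with LTK-14A and listed at 0 in all 4 controls (adjusted p = 0.00632). All 6 calls held with any single library left out.

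Among the genes named for the highest normalized values, which are not scaled to gene length, changes were smaller than in those named by margin in the same direction. Genes that earlier work on these data describes were passed over in this ranking. Fabp4, which it does not name, was at 2118 and 2486 with LTK-14A against 15790, 14910, 18020 and 11420 in the controls (log2 fold change -2.69, adjusted p = 8.58e-07 by limma). Hp, haptoglobin, which binds free hemoglobin, was at 2031 and 2383 in LTK-14A libraries, against 11970 and 10360 in DMSO libraries and 11340 and 14830 in untreated libraries (log2 fold change -2.45 ± 0.15 SE, adjusted p = 7.82e-07), the largest fall among the 6 named for their high values. C3, the central complement component, was at 26640 and 30990 with LTK-14A, 55020 and 60810 with DMSO and 59890 and 62350 in untreated cells (-1.05 ± 0.16 on the log2 scale, adjusted p = 0.000729). Cav1, the coat protein of caveolae, was at 3039 and 2995 with LTK-14A against 8139, 7558, 8197 and 5564 in the controls (-1.27 ± 0.16, adjusted p = 0.000177). The LTK-14A libraries lay below all controls in these genes. Rnf213, a large ubiquitin ligase, was at 3908 and 6289 with LTK-14A against 9278, 12460, 14690 and 13260 in the controls (-1.30 ± 0.21, adjusted p = 0.00111). Slc35e3 was at 8507 and 8214 with LTK-14A against 13630, 13040, 12900 and 10940 in the controls (-0.59 ± 0.13, adjusted p = 0.00822). Aldoa, the glycolytic aldolase, was at 6760 and 6591 with LTK-14A against 9338, 10460, 12500 and 14190 in the controls (-0.78 ± 0.16, adjusted p = 0.00606). With 1 library left out, adjusted p rose above 0.05 for C3 at 0.0811 without LTK-14A 1, for Cav1 at 0.0535 without LTK-14A 1 and 0.0509 without LTK-14A 2, for Rnf213 at 0.12 without LTK-14A 1, for Slc35e3 at 0.128 without LTK-14A 1 and 0.145 without LTK-14A 2 and for Aldoa at 0.159 without LTK-14A 1 and 0.169 without LTK-14A 2; the call of Hp held throughout.

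Of the genes named for their high values, 6 that rose are given here. Eef1a1, which brings aminoacyl-tRNA to the ribosome, was at 29200 and 27800 with LTK-14A, 15460 and 14760 with DMSO and 15340 and 15750 in untreated cells (log2 fold change 0.90 ± 0.13 SE, adjusted p = 0.000465), and it shares sequence with many processed copies. Eef2, which moves the ribosome along, was at 16190 and 14950 with LTK-14A against 8280, 9261, 8863 and 10520 in the controls (0.76 ± 0.13, adjusted p = 0.00204). Bgn, the small proteoglycan biglycan, was at 20840 and 20200 with LTK-14A against 11810, 11970, 11490 and 9754 in the controls (0.87 ± 0.13, adjusted p = 0.000801). Every LTK-14A value was above every control value. Cxcl12, a chemokine of stromal cells, was at 15110 and 14830 with LTK-14A against 9657, 9300, 8667 and 7791 in the controls (0.76 ± 0.13, adjusted p = 0.00161). Fbln2, a matrix fibulin, was at 11490 and 11930 with LTK-14A against 6092, 6131, 6200 and 9211 in the controls (0.78 ± 0.17, adjusted p = 0.00746). Slc5a3, the myo-inositol transporter, was at 10920 and 12350 with LTK-14A against 7308, 7230, 6536 and 5381 in the controls (0.82 ± 0.15, adjusted p = 0.0022). In Fbln2 untreated replicate 2 stood well above the other controls. The call of Eef1a1 held with any library left out, and adjusted p rose above 0.05 for Eef2 at 0.0998 without LTK-14A 1 and 0.0654 without LTK-14A 2, for Bgn at 0.0652 without LTK-14A 1 and 0.0536 without LTK-14A 2, for Cxcl12 at 0.0799 without LTK-14A 1 and 0.068 without LTK-14A 2, for Fbln2 at 0.17 without LTK-14A 1 and 0.187 without LTK-14A 2 and for Slc5a3 at 0.0793 without LTK-14A 1 and 0.119 without LTK-14A 2.

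Few genes passed the test between DMSO and untreated cells, which had 2 libraries each, so differences could be missed. In DMSO against untreated cells, limma with 3 group means called 6 genes, 0.0249% of those tested. Of the 24139 tested, 1408 had an unadjusted p under 0.05, a threshold that a share of about 0.05 passes with no difference at all. For the named genes the differences from each kind of control are given side by side, without a comparison between them, since they share the LTK-14A libraries. The log2 difference of LTK-14A was -5.95 from DMSO and -6.13 from untreated cells for Klb, and 2.81 and 3.12 for Inhba. It was -2.34 and -2.56 for Hp, and 0.92 and 0.87 for Eef1a1. Ccl6 had a less even pair, at 2.32 from DMSO and 3.41 from untreated cells, where its control values were lower.

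Genes were then read by function. Of 77 function lists counted, 32 are described; they were picked after their counts had been seen, so that their counts are descriptions. The share of a list called ran from 8.51% to 62.5%, beside 17.5% of all genes tested. Well-expressed lists can be read beside the 29.1% called among protein-coding genes with a mean of at least 20. Counts at an unadjusted p under 0.05, given for some lists and stems, have no share of all genes beside them. The 17.5% and 29.1% do not apply to those counts, which only describe the members. Counts of a list with a library left out are given where they moved by more than 1.5 times.

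**Figure D3:**
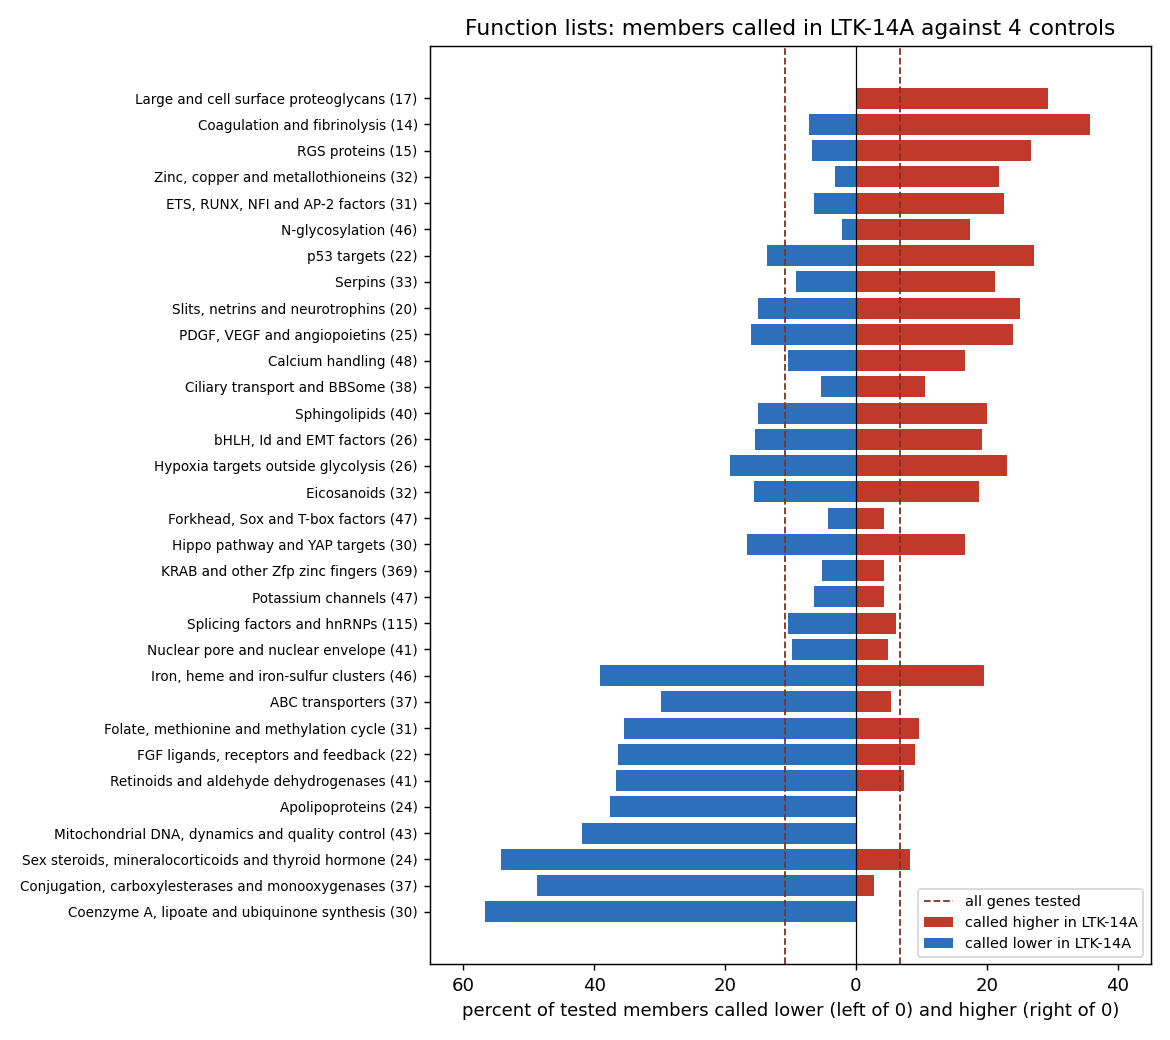
Bars give the percent of a list's tested members (their number in brackets) that were called lower (left) and higher (right) with LTK-14A, and dashed lines mark the 10.8% lower and 6.66% higher of all genes tested. Lists of coenzyme synthesis, conjugation, steroid and thyroid hormone genes and mitochondrial upkeep lie far left of the line. Proteoglycan and coagulation lists lie right of it, and the zinc finger, forkhead, splicing and nuclear pore lists inside both lines.

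Genes that make coenzyme A, lipoate and ubiquinone fell together. Of 30 tested (of 31 in the table), limma called 0 higher and 17 lower, with 1 and 17 at an unadjusted p under 0.05, and the median log2 fold change was -0.76, beside -0.03 over all genes. In the ubiquinone branch Coq8a (mm10 chromosome 1, 180165238 to 180199602), an atypical kinase needed for ubiquinone synthesis, was at 23.9 and 28.4 in LTK-14A libraries, against 203 and 209.9 in DMSO libraries and 231 and 237 in untreated libraries (log2 fold change -3.03 ± 0.17 SE, adjusted p = 4.41e-07). Coq5, a methyltransferase of the same branch, was at 246 and 221 with LTK-14A, 493 and 469.7 with DMSO and 560.0 and 566 in untreated cells (-1.16 ± 0.13, adjusted p = 0.000102). Pdss1, which starts the isoprenoid tail, was at 19.9 and 19.98 with LTK-14A against 76.7, 54.9, 53.5 and 61.3 in the controls (-1.56 ± 0.26, adjusted p = 0.00136). No LTK-14A value reached the lowest control in any of them. Along the coenzyme A branch Slc5a6, which imports pantothenate and biotin, was at 68.9 and 57.0 with LTK-14A against 218, 209.9, 245 and 228 in the controls (-1.83 ± 0.16, adjusted p = 1.20e-05). Pank3, a pantothenate kinase that performs the first step, was at 1168 and 1173 with LTK-14A against 3518, 3164, 3581 and 2341 in the controls (-1.41 ± 0.16, adjusted p = 9.81e-05). Pank1, another such kinase, was at 10.6 and 18.9 with LTK-14A against 69.2, 34.5, 67.0 and 55.7 in the controls (-1.88 ± 0.35, adjusted p = 0.00325). The bifunctional Coasy, which performs the last steps, was at 196 and 131 with LTK-14A against 313, 257, 291 and 317 in the controls (-0.87 ± 0.18, adjusted p = 0.00502). Lias, lipoate synthase, was at 212 and 217 with LTK-14A against 298, 302, 377 and 398 in the controls (-0.66 ± 0.15, adjusted p = 0.0112). Over the list, higher calls numbered 2 without untreated 2, and lower calls numbered 7 without LTK-14A 1 and 9 without LTK-14A 2. Single calls were lost for Pank1 at 0.129 without LTK-14A 1, for Coasy at 0.117 without LTK-14A 2 and for Lias at 0.163 without LTK-14A 1 and 0.14 without LTK-14A 2.

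**Figure D4:**
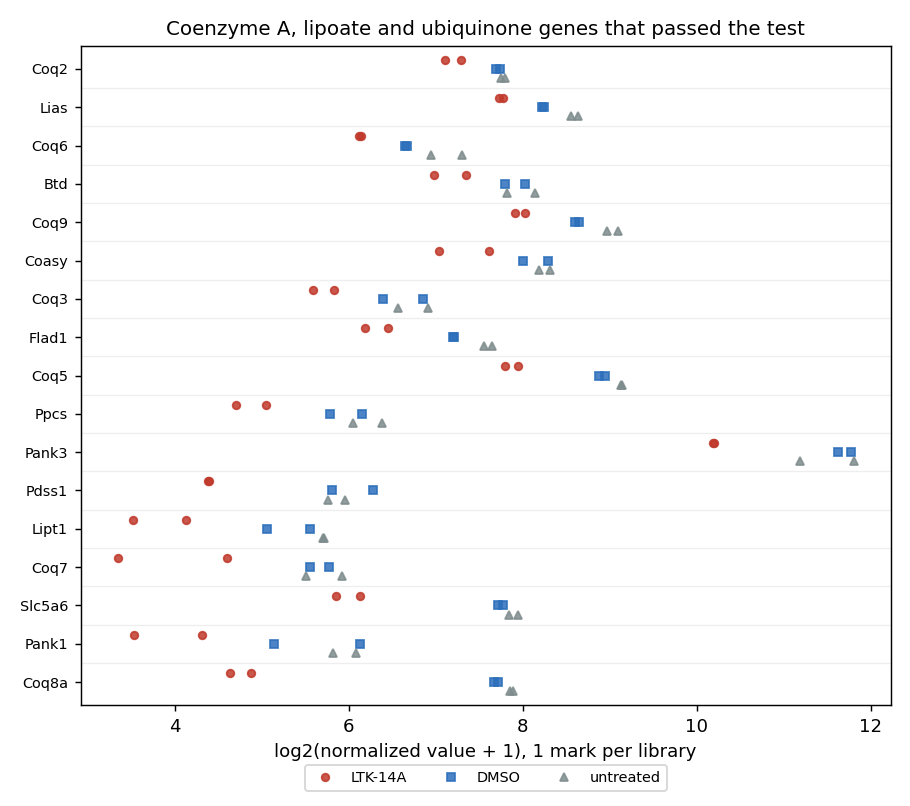
The 17 called genes of coenzyme A, lipoate and ubiquinone synthesis are shown in rows, from the smallest fall (Coq2) to the largest (Coq8a), with 1 mark per library on the log2(normalized value + 1) scale; circles are LTK-14A, squares DMSO and triangles untreated. All 17 have their LTK-14A marks to the left of the controls.

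Iron and heme genes moved in both directions. Of 46 tested (all 46 in the table), 9 were called higher and 18 lower, with a median log2 fold change of -0.42. On the side of uptake, Tfrc (mm10 chromosome 16, 32608920 to 32632794), the transferrin receptor, was at 40.1 and 49.0 in LTK-14A libraries, against 439 and 378 in DMSO libraries and 468 and 272 in untreated libraries (log2 fold change -3.08 ± 0.21 SE, adjusted p = 1.80e-06). Steap4, a metalloreductase, was at 21.6 and 38.9 with LTK-14A, 744 and 689 with DMSO and 652 and 636 in untreated cells (-4.50 ± 0.20, adjusted p = 5.57e-08). Aco1, the cytosolic aconitase that doubles as iron regulatory protein, was at 285 and 329.6 with LTK-14A against 995, 844, 976 and 1097 in the controls (-1.66 ± 0.13, adjusted p = 5.79e-06). The LTK-14A libraries lay far below all controls in these genes. The ferritin light chain and the iron exporter went the other way: the ferritin light chain Ftl1 was at 8939 and 8150 with LTK-14A, 3967 and 4592 with DMSO and 4468 and 4299 in untreated cells (0.98 ± 0.12, adjusted p = 0.000124). Slc40a1, the iron exporter ferroportin, was at 299.6 and 334 with LTK-14A against 166, 151, 177 and 175 in the controls (0.92 ± 0.14, adjusted p = 0.000983). Slc25a37, mitoferrin, which carries iron into mitochondria, was at 933 and 869.5 with LTK-14A against 387, 383, 353 and 350.4 in the controls (1.29 ± 0.12, adjusted p = 1.63e-05). Each of these 3 was higher in both LTK-14A libraries than in any control, and Ftl1 shares sequence with processed copies, which makes its value uncertain. Cp, the ferroxidase ceruloplasmin, was at 3172 and 3231 with LTK-14A against 2216, 2012, 2142 and 1842 in the controls (0.64 ± 0.11, adjusted p = 0.00212). Uptake genes did not all fall, as the importer Slc11a2, the reductases Steap1 and Steap2 and Slc39a14 were called higher. Ncoa4, a receptor for the degradation of ferritin, was called lower. Of these, calls were lost for Slc11a2 at 0.0998 without DMSO 1, 0.105 without DMSO 2, 0.16 without LTK-14A 1, 0.183 without LTK-14A 2 and 0.0773 without untreated 1, for Steap1 at 0.0645 without DMSO 1, 0.0744 without DMSO 2, 0.223 without LTK-14A 1, 0.087 without LTK-14A 2 and 0.0745 without untreated 1, for Steap2 at 0.176 without LTK-14A 1 and 0.146 without LTK-14A 2, for Slc39a14 at 0.066 without LTK-14A 1 and for Ncoa4 at 0.067 without LTK-14A 1 and 0.134 without LTK-14A 2.

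In heme synthesis the first enzyme, Alas1, was at 264 and 283 with LTK-14A, 937 and 846 with DMSO and 958 and 1063 in untreated cells (log2 fold change -1.79 ± 0.12 SE, adjusted p = 1.91e-06), and Alad and Uros of the next steps were lower as well, whereas Cpox was higher. Hpx, hemopexin, the plasma protein that binds free heme, was at 1.87 and 0 with LTK-14A against 124, 152, 129.7 and 206 in the controls (-6.48 ± 0.41, adjusted p = 8.58e-07), a fall alongside that of Hp. Lcn2, a siderophore-binding lipocalin, was at 1831 and 1800 with LTK-14A against 3682, 3638, 3276 and 4007 in the controls (-1.004 ± 0.11, adjusted p = 9.57e-05). Hmox1, heme oxygenase, was at 1277 and 1188 with LTK-14A against 1649, 1629, 1777 and 1896 in the controls (-0.49 ± 0.11, adjusted p = 0.00966). Of the genes placed on this list for iron-sulfur cluster assembly, Iba57, Glrx5, Isca1, Isca2, Bola3 and Nfs1 were lower and none was called higher. Genes of other lists were not counted here. Over the whole list, higher calls numbered 3 without LTK-14A 1 and 5 without LTK-14A 2, and lower calls numbered 8 without LTK-14A 1 and 10 without LTK-14A 2. Single calls were lost for Cp at 0.0695 without LTK-14A 1 and 0.0701 without LTK-14A 2; for Hmox1 at 0.0911 without LTK-14A 1 and 0.134 without LTK-14A 2; for Alad at 0.109 without LTK-14A 1 and 0.255 without LTK-14A 2; for Uros at 0.0861 without LTK-14A 1 and 0.0658 without LTK-14A 2; for Cpox at 0.0942 without LTK-14A 1; for Iba57 at 0.0606 without LTK-14A 1; for Glrx5 at 0.142 without LTK-14A 1; for Isca1 at 0.0559 without DMSO 1, 0.0736 without DMSO 2, 0.12 without LTK-14A 1, 0.301 without LTK-14A 2 and 0.0812 without untreated 1; for Isca2 at 0.152 without LTK-14A 1 and 0.118 without LTK-14A 2; for Nfs1 at 0.069 without LTK-14A 1 and 0.0561 without LTK-14A 2.

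**Figure D5:**
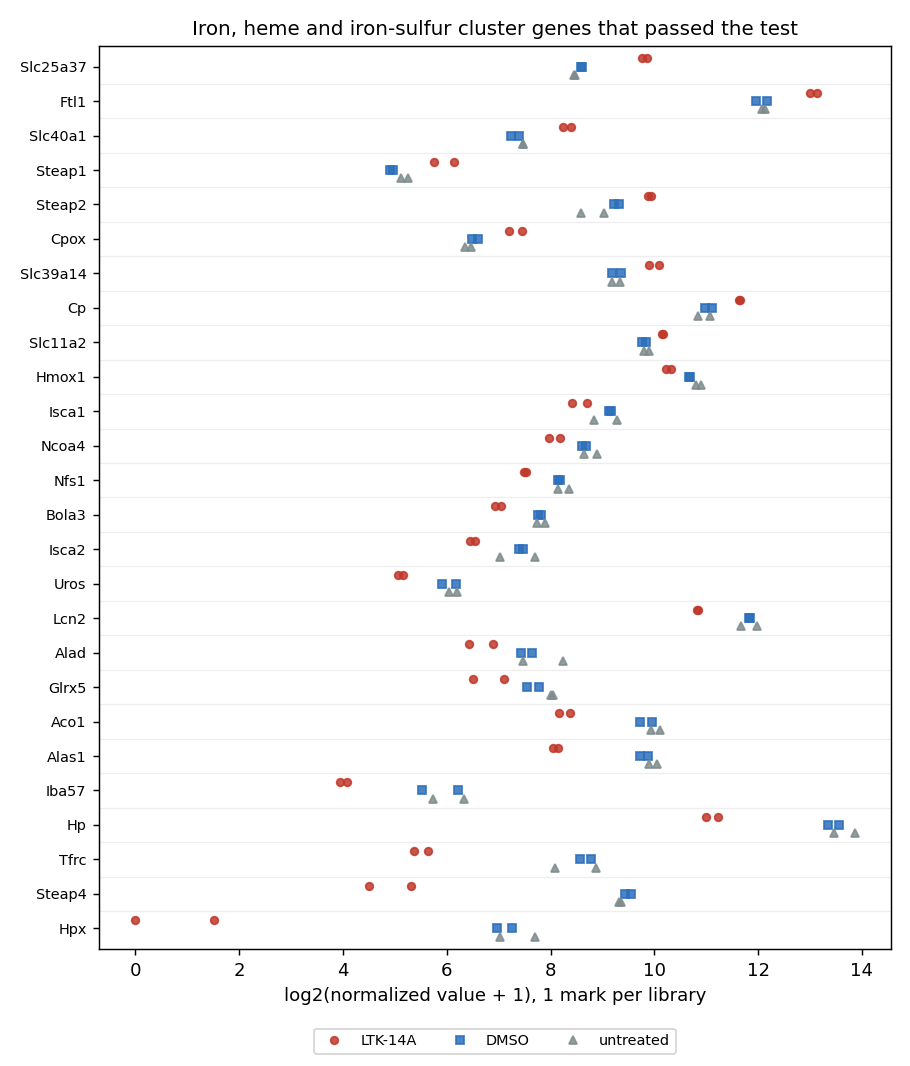
Of the called genes of iron, heme and iron-sulfur clusters, 26 are shown in rows from the largest rise (Slc25a37) to the largest fall (Hpx), with 1 mark per library on the log2(normalized value + 1) scale; circles are LTK-14A, squares DMSO and triangles untreated. The 9 upper rows have LTK-14A to the right of the controls and the 17 lower rows to the left.

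Enzymes that conjugate and oxidise small molecules fell. Of 37 tested (of 91 in the table, so that most members had too low a value), 1 was called higher and 18 lower, with a median of -0.87. Sult1a1, a sulfotransferase of phenols, was at 5.20 and 8.16 in LTK-14A libraries, against 96.3 and 92.6 in DMSO libraries and 111 and 74.7 in untreated libraries (log2 fold change -3.64 ± 0.28 SE, adjusted p = 4.76e-06). Ces1d, a carboxylesterase that hydrolyses triglycerides, was at 169 and 153 with LTK-14A, 745 and 753 with DMSO and 931 and 933 in untreated cells (-2.37 ± 0.14, adjusted p = 5.65e-07). Aox1, aldehyde oxidase, was at 139 and 123 with LTK-14A against 418, 435, 406 and 424 in the controls (-1.68 ± 0.13, adjusted p = 4.19e-06). These 3 enzymes had no overlap between the groups. Fmo1, a flavin monooxygenase, was at 0 and 4.03 with LTK-14A against 17.2, 26.7, 42.0 and 16.8 in the controls (-3.47 ± 0.65, adjusted p = 0.00302). Of the 18 falls, 9 are Ugt1a genes, which share their last exons at 1 locus on chromosome 1, so that they cannot be read as independent; Ugt1a6a, for example, was at 100.1 and 92.5 with LTK-14A against 209, 182, 199 and 196 in the controls (-1.02 ± 0.15, adjusted p = 0.000612). Over the list, higher calls numbered 0 without LTK-14A 1 or LTK-14A 2 or DMSO 1 or DMSO 2 or untreated 1 and 3 without untreated 2, and lower calls numbered 9 without LTK-14A 1 and 10 without LTK-14A 2. The call was lost for Fmo1 at 0.102 without LTK-14A 1.

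Retinoid and aldehyde enzymes also fell more often than they rose, with 3 higher and 15 lower of 41 tested (of 46 in the table) and a median of -0.38. Retsat, which saturates retinol, was at 135 and 165 with LTK-14A, 712 and 787 with DMSO and 841 and 821 in untreated cells (log2 fold change -2.40 ± 0.13 SE, adjusted p = 3.34e-07). Dhrs3, which reduces retinal, was at 25.6 and 27.9 with LTK-14A against 165, 166, 206 and 173 in the controls (-2.68 ± 0.18, adjusted p = 1.73e-06). Aldh3b2, an aldehyde dehydrogenase, was at 7.197 and 6.78 with LTK-14A against 132, 126, 144 and 142 in the controls (-4.10 ± 0.22, adjusted p = 2.64e-07). No overlap between the groups was seen in these. Rising members included Cyp26b1, which degrades retinoic acid, at 71.4 and 56.3 with LTK-14A against 26.3, 29.3, 16.6 and 23.3 in the controls (1.40 ± 0.31, adjusted p = 0.00817). Aldh1a1, which makes it, was at 65.9 and 82.3 with LTK-14A against 35.5, 38.5, 37.2 and 34.5 in the controls (1.00 ± 0.24, adjusted p = 0.012). Of 19 genes with the stem Aldh, 2 were higher and 9 lower. In this stem higher calls numbered 1 without LTK-14A 1 or LTK-14A 2. Over the list, higher calls numbered 1 without LTK-14A 1 or LTK-14A 2, and calls were lost for Cyp26b1 at 0.15 without LTK-14A 1 and 0.0844 without LTK-14A 2 and for Aldh1a1 at 0.0561 without LTK-14A 1 and 0.113 without LTK-14A 2.

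Most tested genes of the steroid and thyroid hormone list fell, with 2 higher and 13 lower of 24 (of 38 in the table) and a median of -0.69. The list holds hormone-responsive genes and receptors beside enzymes, and some of its enzymes also act outside steroid metabolism. Hsd11b1, which regenerates active glucocorticoid, was at 63.5 and 99.6 in LTK-14A libraries, against 354 and 381 in DMSO libraries and 449 and 275 in untreated libraries (log2 fold change -2.16 ± 0.22 SE, adjusted p = 3.66e-05). Greb1, an estrogen-responsive gene, was at 3.59 and 0 with LTK-14A, 230.0 and 241.0 with DMSO and 202 and 176 in untreated cells (-6.63 ± 0.47, adjusted p = 2.08e-06). Thrsp, a thyroid-responsive gene of lipogenesis, was at 14.5 and 22.9 with LTK-14A against 1069, 1108, 1165 and 889 in the controls (-5.78 ± 0.18, adjusted p = 3.46e-09). Both LTK-14A libraries lay below all controls in all 3. Vdr, the vitamin D receptor, went the other way, at 438 and 323 with LTK-14A against 147, 110.2, 108 and 127 in the controls (1.62 ± 0.18, adjusted p = 9.46e-05), and so did Fdxr, ferredoxin reductase, at 154 and 143 with LTK-14A against 42.0, 54.9, 58.9 and 81.2 in the controls (1.35 ± 0.25, adjusted p = 0.00293). Hsd17b12, which acts in the elongation of fatty acids as well as on steroids, was at 364 and 305 with LTK-14A against 729.6, 669, 816 and 599 in the controls (-1.07 ± 0.15, adjusted p = 0.000363). Over the list, higher calls numbered 1 without LTK-14A 1 or LTK-14A 2, and lower calls numbered 4 without LTK-14A 1, 3 without LTK-14A 2, 8 without DMSO 2 and 7 without untreated 1, and single calls were lost for Fdxr at 0.121 without LTK-14A 1 and 0.098 without LTK-14A 2 and for Hsd17b12 at 0.053 without LTK-14A 2.

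In the folate, methionine and methylation cycle 3 of 31 tested (of 34 in the table) were higher and 11 lower, with a median of -0.21. Aldh1l1, the cytosolic enzyme that oxidises 10-formyltetrahydrofolate, was listed at 0 with LTK-14A and was at 31.0 and 28.2 with DMSO and 43.4 and 52.1 in untreated cells (adjusted p = 9.17e-06). Mmab, which prepares cobalamin for methylmalonyl-CoA mutase, was at 122 and 133 with LTK-14A against 382, 405, 414 and 393 in the controls (-1.64 ± 0.13, adjusted p = 5.03e-06). Cth, which makes cysteine from cystathionine, was at 60.0 and 68.1 with LTK-14A against 145, 125, 160.3 and 146 in the controls (-1.16 ± 0.18, adjusted p = 0.000806). The groups did not overlap in these genes. The methyltransferases Gamt, of creatine synthesis, and Pemt, of phosphatidylcholine synthesis, were at 18.4 and 26.0 with LTK-14A against 60.4, 65.4, 66.7 and 71.3 in the controls (-1.54 ± 0.25, adjusted p = 0.00112) and 11.3 and 24.1 with LTK-14A against 48.2, 61.9, 83.4 and 84.7 in the controls (-1.97 ± 0.34, adjusted p = 0.00203). Over the list, higher calls numbered 1 without LTK-14A 1 or LTK-14A 2 and 5 without untreated 2, and lower calls numbered 4 without LTK-14A 1, 6 without LTK-14A 2 and 7 without untreated 1, and the call was lost for Pemt at 0.102 without LTK-14A 1.

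Genes of mitochondrial DNA upkeep, shape and quality control had 0 higher and 18 lower by limma of 43 tested (all in the table), 1 and 25 at an unadjusted p under 0.05, with a median of -0.46. Letm1, an inner membrane protein of ion exchange, was at 176 and 203 with LTK-14A, 668 and 745 with DMSO and 792 and 883 in untreated cells (log2 fold change -2.02 ± 0.14 SE, adjusted p = 1.82e-06). Immt, which shapes the cristae, was at 762 and 859 with LTK-14A against 2155, 2151, 2277 and 2066 in the controls (-1.42 ± 0.11, adjusted p = 4.24e-06). Mfn2, which fuses outer membranes, was at 423 and 398 with LTK-14A against 731, 748, 796 and 897 in the controls (-0.94 ± 0.12, adjusted p = 0.000262). Mief2, a receptor of the fission machinery, was at 57.5 and 34.9 with LTK-14A against 144, 132, 146 and 202 in the controls (-1.75 ± 0.24, adjusted p = 0.000377). The prohibitin Phb was at 125 and 110.4 with LTK-14A against 255, 307, 299 and 334 in the controls (-1.33 ± 0.15, adjusted p = 0.000102). Members of fusion and of fission were therefore both among the falls. Polrmt, the mitochondrial RNA polymerase, was at 97.3 and 94.9 with LTK-14A against 176, 243, 182 and 251 in the controls (-1.12 ± 0.18, adjusted p = 0.00137). Over the list, lower calls numbered 7 without LTK-14A 1 and 8 without LTK-14A 2, and the call was lost for Polrmt at 0.0755 without LTK-14A 1 and 0.0744 without LTK-14A 2.

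The FGF list had 2 higher and 8 lower of 22 tested (of 27 in the table), with a median of -0.51. Besides Klb, the ligand Fgf1 was at 5.79 and 4.72 with LTK-14A, 54.7 and 30.1 with DMSO and 42.1 and 36.9 in untreated cells (log2 fold change -2.72 ± 0.36 SE, adjusted p = 0.00027). Fgf2 was at 60.5 and 56.8 with LTK-14A against 181, 223, 199.8 and 126 in the controls (-1.59 ± 0.22, adjusted p = 0.000416). The feedback inhibitor Spry4 was at 46.8 and 55.6 with LTK-14A against 438, 365, 598 and 483 in the controls (-3.16 ± 0.19, adjusted p = 6.28e-07). Dusp6, a phosphatase of ERK that FGF signalling induces, was at 8.12 and 4.58 with LTK-14A against 32.2, 54.2, 48.2 and 56.6 in the controls (-2.74 ± 0.36, adjusted p = 0.000284). The members called higher were the ligand Fgf7, at 884 and 679 with LTK-14A against 440.0, 364, 331 and 297 in the controls (1.13 ± 0.17, adjusted p = 0.000712), and Spred3, a Sprouty-related inhibitor of the pathway. Spred3 was at 196 and 181 with LTK-14A against 99.1, 113, 72.1 and 105 in the controls (0.96 ± 0.20, adjusted p = 0.00599). Over the list, higher calls numbered 0 without LTK-14A 1 and 1 without LTK-14A 2, and lower calls numbered 4 without LTK-14A 1 or LTK-14A 2, and calls were lost for Fgf2 at 0.0561 without LTK-14A 1 and 0.0585 without LTK-14A 2, for Fgf7 at 0.0896 without LTK-14A 1 and for Spred3 at 0.143 without LTK-14A 1 and 0.108 without LTK-14A 2.

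Apolipoproteins had 0 higher and 9 lower by limma of 24 tested (of 30 in the table), 1 and 10 at an unadjusted p under 0.05, with a median of -0.88. Apoc1 was at 10.7 and 20.5 with LTK-14A, 577 and 497 with DMSO and 693 and 521 in untreated cells (log2 fold change -5.16 ± 0.23 SE, adjusted p = 5.57e-08). Its neighbour Apoc4 was at 1.80 and 1.86 with LTK-14A against 21.0, 33.7, 34.5 and 31.8 in the controls (-3.44 ± 0.41, adjusted p = 0.00013). Apoe, which carries cholesterol out of many cell types, was at 68.4 and 54.8 with LTK-14A against 157, 255, 232 and 193 in the controls (-1.73 ± 0.21, adjusted p = 0.000151). Clptm1, Apoc4, Apoc1, Apoe and Tomm40 were all lower with LTK-14A. On chromosome 7 they follow each other among protein-coding genes with a mean of at least 20. Apod was at 76.5 and 110.2 with LTK-14A against 382, 868, 826 and 525 in the controls (-2.73 ± 0.29, adjusted p = 5.75e-05). Apol6 was at 72.4 and 84.8 with LTK-14A against 337, 368, 448 and 353 in the controls (-2.24 ± 0.16, adjusted p = 2.08e-06). Among ABC transporters, 2 of 37 tested (of 50 in the table) were higher and 11 lower, with a median of -0.38. Abcg1, which exports cholesterol, was at 78.3 and 76.9 with LTK-14A against 194, 189, 234 and 199 in the controls (-1.38 ± 0.16, adjusted p = 0.000103). Abcb6, a porphyrin transporter, was at 17.1 and 27.9 with LTK-14A against 85.5, 82.3, 69.7 and 98.6 in the controls (-1.88 ± 0.26, adjusted p = 0.00041). Abca8a was at 3.63 and 0 with LTK-14A against 18.3, 37.1, 37.1 and 36.5 in the controls (-3.90 ± 0.60, adjusted p = 0.000833). Abca5 was higher, at 594 and 524 with LTK-14A against 195, 163, 196 and 150.2 in the controls (1.67 ± 0.15, adjusted p = 1.87e-05). Of apolipoproteins, lower calls numbered 4 without LTK-14A 1. Of ABC transporters, higher calls numbered 1 without LTK-14A 1 or LTK-14A 2 and 4 without untreated 2, and lower calls numbered 4 without LTK-14A 1, 5 without LTK-14A 2 and 7 without untreated 1. Calls were lost for Clptm1 at 0.0624 without LTK-14A 1 and 0.0615 without LTK-14A 2 and for Apod at 0.0528 without LTK-14A 1.

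Large and cell surface proteoglycans had 5 higher and 0 lower by limma of 17 tested (of 21 in the table), 6 and 1 at an unadjusted p under 0.05, with a median of 0.34. The glypican Gpc1 was at 972 and 1017 with LTK-14A, 453 and 445 with DMSO and 394 and 554 in untreated cells (log2 fold change 1.12 ± 0.14 SE, adjusted p = 0.00021). The syndecan Sdc3 was at 970.4 and 885 with LTK-14A against 352, 388, 488 and 531 in the controls (1.09 ± 0.17, adjusted p = 0.000763). The matrix proteoglycan Vcan, versican, was at 11230 and 11050 with LTK-14A against 8857, 7569, 7156 and 5648 in the controls (0.63 ± 0.16, adjusted p = 0.0196). Coagulation and fibrinolysis genes had 5 higher and 1 lower of 14 tested (of 25 in the table), with a median of 0.45. F3, tissue factor, which starts coagulation, was at 2681 and 2565 with LTK-14A, 1116 and 1086 with DMSO and 965 and 1175 in untreated cells (1.28 ± 0.11, adjusted p = 1.49e-05). F2r, the thrombin receptor, was at 798 and 762 with LTK-14A against 479.7, 416, 504 and 462 in the controls (0.75 ± 0.12, adjusted p = 0.00128). F8, coagulation factor VIII, fell to 19.2 and 21.7 with LTK-14A against 81.1, 58.6, 57.1 and 34.7 in the controls (-1.40 ± 0.33, adjusted p = 0.0115). Of proteoglycans, higher calls numbered 1 without LTK-14A 1 or LTK-14A 2 and 3 without DMSO 2 or untreated 1. Of coagulation genes, higher calls numbered 1 without LTK-14A 1 and 2 without LTK-14A 2, and lower calls numbered 0 without LTK-14A 1. Calls were lost for Sdc3 at 0.0916 without LTK-14A 1 and 0.0636 without LTK-14A 2, for Vcan at 0.249 without LTK-14A 1, 0.23 without LTK-14A 2, 0.0502 without DMSO 2 and 0.0596 without untreated 1, for F2r at 0.0591 without LTK-14A 1 and for F8 at 0.187 without LTK-14A 1 and 0.143 without LTK-14A 2.

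Serpins, mostly protease inhibitors, had 7 higher and 3 lower of 33 tested (of 68 in the table), with a median of 0.54. Serpine2, which inhibits thrombin, was at 976 and 896 with LTK-14A, 358 and 401 with DMSO and 371 and 448 in untreated cells (log2 fold change 1.25 ± 0.13 SE, adjusted p = 4.62e-05). Serpina3c was lower, at 50.4 and 27.5 with LTK-14A against 133, 151, 126 and 129 in the controls (-1.82 ± 0.24, adjusted p = 0.000263), and it belongs to a cluster of near copies between which reads could be split. The group of zinc, copper and metallothionein genes had 7 higher and 1 lower of 32 tested (of 36 in the table), with a median of -0.02. Atp7a, a copper-exporting ATPase, was at 1035 and 1032 with LTK-14A against 512, 489, 464 and 418 in the controls (1.14 ± 0.12, adjusted p = 5.94e-05). Mt2 was at 227 and 216 with LTK-14A against 125, 82.6, 127 and 84.1 in the controls (1.10 ± 0.21, adjusted p = 0.00381). The zinc importer Slc39a14, which also carries iron, was at 1082 and 948 with LTK-14A against 657, 581, 578 and 647 in the controls (0.72 ± 0.12, adjusted p = 0.00146). Of serpins, higher calls numbered 4 without LTK-14A 1, and lower calls numbered 1 without LTK-14A 1. Of the metal genes, higher calls numbered 1 without LTK-14A 1 and 3 without LTK-14A 2, and lower calls numbered 0 without LTK-14A 1 and 3 without untreated 2. Calls were lost for Mt2 at 0.134 without LTK-14A 1 and 0.113 without LTK-14A 2 and for Slc39a14 at 0.066 without LTK-14A 1.

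RGS proteins, which switch off G-protein signals, had 4 higher and 1 lower of 15 tested (of 23 in the table). Rgs16 was at 186 and 173 with LTK-14A, 52.8 and 40.0 with DMSO and 42.7 and 47.5 in untreated cells (log2 fold change 1.95 ± 0.20 SE, adjusted p = 5.00e-05). Rgs2 was at 359.8 and 367 with LTK-14A, 1088 and 1190 with DMSO and 1273 and 1083 in untreated cells (-1.67 ± 0.12, adjusted p = 1.96e-06), so that members of 1 family moved in opposite directions with no overlap in either. In N-glycosylation 8 of 46 tested (of 49 in the table) were higher and 1 lower, with a median of 0.02. Man2a1, a Golgi mannosidase, was at 1327 and 1171 with LTK-14A against 625, 639, 686 and 739.6 in the controls (0.89 ± 0.12, adjusted p = 0.000322). Dolk, which makes the lipid carrier dolichol phosphate, was at 73.6 and 89.6 with LTK-14A against 228, 209.9, 258 and 243 in the controls (-1.51 ± 0.16, adjusted p = 5.48e-05). Of RGS genes, higher calls numbered 2 without LTK-14A 1 or LTK-14A 2. Of N-glycosylation, higher calls numbered 1 without LTK-14A 1, 3 without LTK-14A 2, 4 without DMSO 2 or untreated 1 and 13 without untreated 2, and lower calls numbered 5 without untreated 2.

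Several signalling lists held rises and falls of like number. In the hypoxia list 6 of 26 tested were higher and 5 lower, with a median of 0.01. Hif1a was at 2036 and 1730 with LTK-14A, 1021 and 1020 with DMSO and 955 and 834 in untreated cells (log2 fold change 0.97 ± 0.13 SE, adjusted p = 0.000244). Epas1, the other hypoxia-inducible factor subunit, was at 412 and 423 with LTK-14A, 1236 and 1181 with DMSO and 1199 and 1433 in untreated cells (-1.59 ± 0.12, adjusted p = 3.39e-06). The paralogs moved in opposite directions with no overlap between the groups. Pfkfb3, a regulator of glycolysis, was at 288 and 231 with LTK-14A against 977, 996, 1156 and 1021 in the controls (-2.0 ± 0.13, adjusted p = 1.21e-06). Among PDGF, VEGF and angiopoietin genes, 6 of 25 tested were higher and 4 lower: Angpt4 was at 639 and 531 with LTK-14A against 145, 164, 149.8 and 186 in the controls (1.85 ± 0.15, adjusted p = 7.66e-06). Angptl4, an inhibitor of lipoprotein lipase, was at 181 and 216 with LTK-14A against 445, 466, 577 and 439 in the controls (-1.27 ± 0.15, adjusted p = 0.000125). Apln, the peptide apelin, was at 73.7 and 108 with LTK-14A against 258, 267, 374 and 304 in the controls (-1.72 ± 0.20, adjusted p = 0.000103). Among guidance and neurotrophin genes 5 of 20 tested were higher and 3 lower. Sort1, sortilin, which sorts proneurotrophins and glucose transporter vesicles, was at 402 and 453 with LTK-14A against 1817, 1832, 1960 and 2071 in the controls (-2.16 ± 0.11, adjusted p = 2.26e-07). Of hypoxia genes, higher calls numbered 2 without LTK-14A 1 and 3 without LTK-14A 2, and lower calls numbered 2 without LTK-14A 1 or LTK-14A 2 and 8 without untreated 2. Of PDGF and VEGF genes, higher calls numbered 2 without LTK-14A 1 and 3 without LTK-14A 2. Of guidance genes, higher calls numbered 0 without LTK-14A 1 or LTK-14A 2.

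Of p53 targets, 6 of 22 tested were higher and 3 lower, with Plk2, a polo-like kinase, at 421 and 374 with LTK-14A, 149.7 and 164 with DMSO and 160.3 and 138 in untreated cells (log2 fold change 1.37 ± 0.14 SE, adjusted p = 5.41e-05). Sphingolipid genes had 8 higher and 6 lower of 40, and Asah1, acid ceramidase, was at 1858 and 1795 with LTK-14A against 858, 851, 794 and 789 in the controls (1.15 ± 0.11, adjusted p = 1.87e-05). Eicosanoid genes had 6 higher and 5 lower of 32, with Pla2g4a, the phospholipase that frees arachidonate, at 329 and 339.5 with LTK-14A against 162, 150.3, 180.3 and 157 in the controls (1.04 ± 0.14, adjusted p = 0.000371). Ptges2, a prostaglandin E synthase, was at 158 and 119 with LTK-14A against 357, 341, 389.5 and 456 in the controls (-1.48 ± 0.17, adjusted p = 8.56e-05). The groups did not overlap in these 4 genes. Calcium handling had 8 higher and 5 lower of 48, with the channel Itpr3, which releases calcium from the endoplasmic reticulum, at 708 and 674 with LTK-14A against 332, 319, 263 and 367 in the controls (1.12 ± 0.15, adjusted p = 0.000259). Of p53 targets, higher calls numbered 2 without LTK-14A 1 or LTK-14A 2, and lower calls numbered 1 without LTK-14A 2. Of sphingolipid genes, higher calls numbered 1 without LTK-14A 1 or LTK-14A 2, and lower calls numbered 0 without LTK-14A 1 or LTK-14A 2. Of eicosanoid genes, higher calls numbered 1 without LTK-14A 1 and 2 without LTK-14A 2, and lower calls numbered 3 without LTK-14A 1 or LTK-14A 2. Of calcium genes, higher calls numbered 1 without LTK-14A 1 and 3 without LTK-14A 2, and lower calls numbered 0 without LTK-14A 1, 1 without LTK-14A 2 and 3 without untreated 1.

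Among transcription factors the Hippo list had 5 higher and 5 lower of 30 tested, among them Ankrd1, a cardiac ankyrin repeat protein that YAP induces, at 13.2 and 12.7 with LTK-14A against 0, 0, 2.38 and 2.20 in the controls (2.94 ± 0.70, adjusted p = 0.0123), and Tead4, a partner factor of YAP, at 122 and 103 with LTK-14A against 37.9, 50.2, 47.2 and 31.1 in the controls (1.43 ± 0.25, adjusted p = 0.0021). Calls were lost for Ankrd1 at 0.16 without LTK-14A 1 and 0.146 without LTK-14A 2 and for Tead4 at 0.0963 without LTK-14A 1 and 0.0592 without LTK-14A 2. Dlc1, a GTPase-activating protein, was at 1076 and 1256 with LTK-14A against 2597, 2654, 2683 and 2827 in the controls (-1.21 ± 0.11, adjusted p = 1.71e-05). ETS, RUNX, NFI and AP-2 factors had 7 higher and 2 lower of 31, and bHLH, Id and EMT factors 5 higher and 4 lower of 26. Ahr, the aryl hydrocarbon receptor, was at 262 and 240.3 with LTK-14A, 73.5 and 75.3 with DMSO and 99.0 and 80.2 in untreated cells (log2 fold change 1.61 ± 0.18 SE, adjusted p = 8.21e-05). Id1, which blocks bHLH factors, was at 44.98 and 36.9 with LTK-14A against 101, 102, 105 and 119 in the controls (-1.36 ± 0.20, adjusted p = 0.000526). Both had separate groups. Of Hippo genes, higher calls numbered 0 without LTK-14A 1, 1 without LTK-14A 2 and 9 without untreated 2, and lower calls numbered 3 without LTK-14A 1 or LTK-14A 2. Of the ETS list, higher calls numbered 0 without LTK-14A 1 and 1 without LTK-14A 2, and lower calls numbered 0 without LTK-14A 1 or LTK-14A 2, 1 without DMSO 1 or untreated 1 and 5 without untreated 2. Of the bHLH list, higher calls numbered 1 without LTK-14A 1 or LTK-14A 2 and 3 without DMSO 2 or untreated 1, and lower calls numbered 2 without LTK-14A 1 or LTK-14A 2.

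Counts of 6 further lists follow, to be read beside the 17.5% called of all genes tested. Members with a mean of at least 20 are to be read beside the 29.1% called among protein-coding genes at that level. Of 369 zinc finger genes tested, 16 were higher and 19 lower, with a median of 0.09. Of 115 splicing genes 7 were higher and 12 lower, of 41 nuclear pore and envelope genes 2 and 4, of 38 ciliary genes 4 and 2, of 47 forkhead, Sox and T-box factors 2 and 2, and of 47 potassium channels 2 and 3. At a mean of at least 20, 15 of 307 zinc finger genes were higher and 18 lower, and of 109 splicing genes 7 and 12. At that level the counts were 2 and 4 of 40 nuclear pore and envelope genes and 4 and 2 of 38 ciliary genes. They were 2 and 2 of 30 forkhead, Sox and T-box factors and 0 and 2 of 7 potassium channels. Some single members moved far. Rbm47, an RNA-binding splicing regulator, was at 23.1 and 12.7 with LTK-14A, 192 and 193 with DMSO and 215 and 196 in untreated cells (log2 fold change -3.46 ± 0.23 SE, adjusted p = 1.34e-06). Foxp1, a forkhead repressor, was at 473 and 465 with LTK-14A against 198, 234, 204 and 167 in the controls (1.23 ± 0.15, adjusted p = 0.000183). Kcnk3, a background potassium channel, was at 287 and 351 with LTK-14A against 1202, 1335, 1451 and 1444 in the controls (-2.09 ± 0.13, adjusted p = 8.05e-07). Zfp703 was at 127 and 120.2 with LTK-14A against 306, 332, 393 and 315 in the controls (-1.43 ± 0.15, adjusted p = 4.41e-05). None of the 4 had a control library within the LTK-14A range. Of zinc fingers, higher calls numbered 1 without LTK-14A 1 or LTK-14A 2, 9 without DMSO 2 or untreated 1 and 27 without untreated 2, and lower calls numbered 3 without LTK-14A 1, 8 without LTK-14A 2, 12 without DMSO 2 and 11 without untreated 1. Of splicing genes, higher calls numbered 0 without LTK-14A 1 or LTK-14A 2, 4 without DMSO 2 or untreated 1 and 13 without untreated 2, and lower calls numbered 3 without LTK-14A 1, 2 without LTK-14A 2 and 7 without DMSO 2. Of nuclear pore genes, higher calls numbered 0 without LTK-14A 1 or LTK-14A 2 or DMSO 2 or untreated 1 and 4 without untreated 2, and lower calls numbered 0 without LTK-14A 1 and 1 without LTK-14A 2. Of ciliary genes, higher calls numbered 1 without LTK-14A 1, 0 without LTK-14A 2, 2 without untreated 1 and 7 without untreated 2, and lower calls numbered 0 without LTK-14A 1 and 1 without LTK-14A 2. Of forkhead, Sox and T-box factors, higher calls numbered 1 without LTK-14A 1 or LTK-14A 2 or DMSO 2 or untreated 1 and 4 without untreated 2, and lower calls numbered 1 without LTK-14A 1 or DMSO 2 and 0 without LTK-14A 2. Of potassium channels, higher calls numbered 1 without LTK-14A 1 or LTK-14A 2 or DMSO 1 or untreated 1 or untreated 2, and lower calls numbered 5 without untreated 2.

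Gene families were also counted through symbol stems, the letters before the first digit, with 10 or more genes tested in each of 197 stems. Those given were picked after their counts were seen, to be read beside the 10.8% lower and 6.66% higher of all genes tested. The Gbp stem, guanylate-binding proteins, had 10 lower of 11 and the Parp stem, ADP-ribosyltransferases, 8 lower of 12, with 0 higher in either by limma, also at an unadjusted p under 0.05. In the Parp stem Parp12 was at 351 and 366 with LTK-14A, 662 and 921 with DMSO and 1199 and 847 in untreated cells (log2 fold change -1.30 ± 0.19 SE, adjusted p = 0.000563). Parp14 was at 382 and 602 with LTK-14A against 989, 1131, 1476 and 999.8 in the controls (-1.24 ± 0.20, adjusted p = 0.00109). Parp1, which senses DNA breaks, was at 345 and 301 with LTK-14A against 469, 473, 502 and 638 in the controls (-0.68 ± 0.15, adjusted p = 0.00831). Parp4 was at 249 and 256 with LTK-14A against 278, 308, 306 and 293 in the controls without passing the test (adjusted p = 0.264). The Coq and Hsd stems each had 7 lower of 11 and 0 higher by either measure. Coq genes also stand in the coenzyme list and Hsd genes in the steroid list, so these counts repeat calls already given. The Ccl stem of chemokines had 4 higher and 0 lower of 11 by limma, 6 and 0 at an unadjusted p under 0.05. Of the Gbp stem, lower calls numbered 3 without LTK-14A 1 and 6 without LTK-14A 2. Of the Parp stem, lower calls numbered 1 without LTK-14A 1 and 2 without LTK-14A 2. Of the Coq stem, higher calls numbered 1 without untreated 2, and lower calls numbered 3 without LTK-14A 1 and 2 without LTK-14A 2. Of the Hsd stem, lower calls numbered 2 without LTK-14A 1 and 1 without LTK-14A 2. Of the Ccl stem, higher calls numbered 2 without LTK-14A 1 or LTK-14A 2. Calls were lost for Parp1 at 0.106 without LTK-14A 1 and 0.179 without LTK-14A 2, for Parp12 at 0.0898 without LTK-14A 1 and 0.0745 without LTK-14A 2 and for Parp14 at 0.11 without LTK-14A 1.

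Position along the chromosome was described as well. Neighbours were counted only among the 10918 protein-coding genes with a mean of at least 20, so other tested genes may lie between them. By that count 40 runs of 4 or more genes called in the same direction were found, 11 higher and 29 lower. Their number was not set against any expectation. The runs were found once, with all 6 libraries. Several are clusters of related genes, between whose copies reads could be split, such as the Ugt1a genes and Orm1, Orm3 and Orm2 on chromosome 4, where Orm1, an acute-phase glycoprotein, was at 34.0 and 31.9 with LTK-14A, 407 and 428 with DMSO and 394 and 252 in untreated cells (log2 fold change -3.42 ± 0.21 SE, adjusted p = 7.82e-07). Others hold unrelated genes. On chromosome 17 Itpr3, Uqcc2, Ip6k3, Lemd2 and Hmga1 follow each other among the genes counted and were all higher. Hmga1, an architectural chromatin protein, was at 611 and 588 with LTK-14A against 375, 378, 363 and 373 in the controls (0.69 ± 0.11, adjusted p = 0.00149). On chromosome 6 Rpusd3, Cidec, Jagn1, Il17re, Il17rc and Creld1 were all lower, and Il17re, an interleukin-17 receptor subunit, was at 0 and 2.29 with LTK-14A against 33.2, 37.6, 32.0 and 25.9 in the controls (-4.18 ± 0.51, adjusted p = 0.000166). Acbd4, Hexim1, Hexim2 and Map3k14 on chromosome 11 were lower, with Hexim1, an inhibitor of the elongation factor P-TEFb, at 221 and 249 with LTK-14A against 503, 530.3, 519 and 632 in the controls (-1.21 ± 0.14, adjusted p = 8.42e-05). Calls of the members named here were often lost with 1 library fewer. In the run of Itpr3 they were lost for Uqcc2 at 0.067 without DMSO 1, 0.0599 without DMSO 2, 0.153 without LTK-14A 1 and 0.166 without LTK-14A 2, for Ip6k3 at 0.132 without LTK-14A 2 and for Lemd2 at 0.0997 without DMSO 1, 0.099 without DMSO 2, 0.401 without LTK-14A 1, 0.282 without LTK-14A 2 and 0.124 without untreated 1. Among the Orm genes they were lost for Orm3 at 0.0833 without DMSO 1, 0.102 without DMSO 2, 0.359 without LTK-14A 1 and 0.107 without LTK-14A 2 and for Orm2 at 0.0843 without DMSO 1, 0.0967 without DMSO 2, 0.185 without LTK-14A 1, 0.286 without LTK-14A 2 and 0.0572 without untreated 1. In the run of Il17re they were lost for Rpusd3 at 0.0893 without LTK-14A 1 and 0.0898 without LTK-14A 2, for Jagn1 at 0.0543 without LTK-14A 1 and 0.189 without LTK-14A 2, for Il17rc at 0.12 without LTK-14A 1 and 0.0958 without LTK-14A 2 and for Creld1 at 0.128 without LTK-14A 1 and 0.0844 without LTK-14A 2. In the run of Hexim1 they were lost for Acbd4 at 0.119 without LTK-14A 1 and 0.143 without LTK-14A 2, for Hexim2 at 0.093 without LTK-14A 2 and for Map3k14 at 0.0906 without DMSO 2, 0.211 without LTK-14A 1 and 0.331 without LTK-14A 2. The run of 8 Ugt1a genes held 2 calls without LTK-14A 1 or LTK-14A 2 and 7 to 8 without any other single library.

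By gene type, protein-coding genes were called most often, at 23.5% of 14796. Over all genes tested 17.5% were called, 6.66% higher and 10.8% lower. The share called was below that in the other types given here. It was 8.39% of long intergenic RNAs, 6.08% of antisense genes, 11.2% of processed pseudogenes and 1.31% of small nucleolar RNA genes. Long intergenic RNAs had 21 higher and 69 lower of 1073, and antisense genes 20 higher and 76 lower of 1578. Processed pseudogenes had more higher than lower calls, 226 higher and 116 lower of 3053. Their reads cannot be told apart from those of their parent genes with certainty. Of 229 small nucleolar RNA genes 2 were higher and 1 lower. Of protein-coding genes, higher calls numbered 201 without LTK-14A 1 and 295 without LTK-14A 2, and lower calls numbered 806 without LTK-14A 1 and 917 without LTK-14A 2. Of long intergenic RNAs, higher calls numbered 5 without LTK-14A 1, 4 without LTK-14A 2, 11 without untreated 1 and 32 without untreated 2, and lower calls numbered 24 without LTK-14A 1 and 23 without LTK-14A 2. Of antisense genes, higher calls numbered 1 without LTK-14A 1, 0 without LTK-14A 2, 13 without DMSO 2 and 10 without untreated 1, and lower calls numbered 27 without LTK-14A 1 or LTK-14A 2 and 48 without untreated 1. Of processed pseudogenes, higher calls numbered 52 without LTK-14A 1 and 78 without LTK-14A 2, and lower calls numbered 36 without LTK-14A 1, 35 without LTK-14A 2 and 75 without untreated 1. Of small nucleolar RNA genes, higher calls numbered 0 without LTK-14A 1 or LTK-14A 2 or DMSO 1 or DMSO 2 and 1 without untreated 1, and lower calls numbered 0 without LTK-14A 1 or LTK-14A 2. No source used here says whether the counting used strand, so an antisense gene and its partner may share reads.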

How the data were processed

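Total RNA of 6 3T3L1 samples, 2 in each of 3 groups by the labels, was sequenced. The deposited table of the authors holds 1 value per gene and library on a log10 scale; read from the values, a number x stands for a normalized value whose log2 has x as its log10, kept to 4 significant digits, and was turned back accordingly with 0 kept as 0. The submitters' processing notes name mm10. No aligner, counter, annotation or normalization is named in the labels or the file header. Whole reads could not be recovered, so no count test was run and depth is unknown. Of 53342 genes, 25966 were at 0 in all libraries, and 53237 identifiers matched GENCODE vM21, 51270 with the same coordinates.

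Genes that reached 1 in 2 or more libraries were tested as log2(value + 1) with limma 3.58.1 (trend) in R 4.3.3, with Benjamini-Hochberg adjustment and a threshold of 0.05, LTK-14A against the mean of the 4 controls. Fold changes on this scale understate the change of low genes. Summaries and figures used Python 3.11.15, numpy 2.4.6, pandas 2.3.3 and matplotlib 3.10.9. The fit was tested on simulated data.

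The members and lists were chosen with earlier results of these data known. Genes were named by rule among those called and separated from all controls whose higher group averaged 20 or more: per direction the 12 of widest margin and the 6 of highest mean, then up to 6 listed at 0 in one group and at 5 or more in every library of the other, and up to 4 called members of widest margin per described list. Pseudogenes, unnamed gene models, small RNA genes and genes that earlier work on these data describes were passed over in the parts by margin, level and 0. A few genes that the rule names are not reported here. Further members of the lists, stems and runs were picked after their values were seen. The alternatives were other scalings, filters, pseudocounts and control groups, no trend, a change beyond 2-fold, a replicate block, and each library left out; with 1 LTK-14A library left, it is assumed to vary like the controls.

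Same-numbered libraries had deviations from their group means that correlated at 0.052 for LTK-14A and DMSO, -0.018 for LTK-14A and untreated and 0.168 for DMSO and untreated, over 13179 genes, so the numbers were not taken as pairs.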

Additional observations from a re-analysis of the deposited data

Results flagged for a closer look

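Of 166 quantities examined over the 4 control libraries, 9 had 1 library far from the other 3, where chance gives about 1 in 20. DMSO replicate 1 was the low library for Slc25a34, at 27.9 against 46.0 to 48.8 in the other controls, for Apoc4, at 21.0 against 31.8 to 34.5, for Abca8a, at 18.3 against 36.5 to 37.1, and for Ormdl2, at 34.9 against 57.5 to 62.0. Untreated replicate 2 was low for Inhba, at 22.8 against 33.9 to 36.5, and high for Fbln2, at 9211 against 6092 to 6200, for Bbc3, at 119.6 against 89.8 to 93.9, and for the share of the total in Gm26917 and Gm42418, at 16.4% against 8.604% to 9.76%. Untreated replicate 1 was high for Fgl2, at 3.57 against 2.15 to 2.26.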

How the results depend on the processing

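Both LTK-14A libraries carried the counts. With 1 library left out, the genes called ranged from 1202 to 5511, the higher ones from 272 to 2283 and the lower ones from 930 to 3228, with the smallest values without LTK-14A replicate 1 and the largest without untreated replicate 2. Genes separated upwards ranged from 4619 to 6466 and downwards from 5508 to 6704, as fewer libraries have to be cleared. With DMSO alone as control 2456 genes were called and 1368 were lower; with untreated alone 964 were called, 281 higher and 683 lower, on fewer libraries. Without the variance trend 2461 were called, 832 higher and 1629 lower, and a test of a change beyond 2-fold called 422, 32 higher and 390 lower. With quantile normalization 1984 of 4159 called genes were higher. With the replicate block 4192 genes were called, 1603 higher and 2589 lower, and 1 of 162 named genes lost its call. Of the 162 named genes none changed direction under any of these alternatives; 100 kept their call without LTK-14A replicate 1, 112 without LTK-14A replicate 2 and 88 with untreated alone as control. In the test of a change beyond 2-fold, 57 of the 162 named genes kept their call, the fewest of any alternative. Depth is unknown, so values of a few units carry an error that cannot be stated.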

Other observations

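Rmrp, the RNA of a ribonuclease complex, and Ccdc107 overlap on chromosome 4 (mm10, 43492788 to 43493058 on the minus strand and 43492900 to 43495921 on the plus strand), so reads could be shared between them; they were chosen after their values were seen. Rmrp was at 7197 and 6401 with LTK-14A, 6113 and 8.47 with DMSO and 0 in both untreated libraries, so that DMSO replicate 1 lay next to the LTK-14A libraries (log2 fold change 8.77 ± 2.63 SE, adjusted p = 0.0395 by limma). The call of Rmrp was lost at 0.398 without LTK-14A replicate 1, 0.381 without LTK-14A replicate 2, 0.0976 without DMSO replicate 2, 0.119 without untreated replicate 1 and 0.0561 without untreated replicate 2. Ccdc107 was at 7266 and 6464 with LTK-14A, 6173 and 2672 with DMSO and 2155 and 3031 in untreated cells.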
